A study of Mus musculus with 6 samples.

Results

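The genes described here are Fgf4 and 9 genes known to respond to the kinase ERK in mouse embryonic stem cells: Etv4, Etv5, Dusp6, Dusp4, Spry2, Spry4, Spred1, Egr1 and Ier3. They were chosen by name, for what they are known to do, with earlier results of these data known, so their counts describe these genes only. They are 10 of the 55536 Ensembl genes listed, and all 10 were among the 14661 genes tested. RNA was measured in embryonic stem cells of C57BL/6 mice. One group was wild type (WT, 3 libraries) and the other lacked both copies of Max (Max-/-, called Max-KO, 3 libraries), and no treatment or time point is given for either group. Max encodes the partner through which MYC family proteins bind DNA, mostly at the sequence CACGTG, the E-box. How the knockout was made, whether it came from 1 clone, whether the 3 samples of a group were separate cultures and which medium was used are not given in the sources used here.

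FGF4 is a growth factor that mouse embryonic stem cells secrete and sense themselves. It binds FGF receptors together with heparan sulfate, and the signal runs through the adaptors FRS2 and GRB2 to RAS, then through the kinases RAF and MEK to ERK, which is known for readying these cells to leave the naive pluripotent state. ERK in turn switches on transcription factors of the ETS family and early response genes, and also its own inhibitors: dual-specificity phosphatases that remove phosphate from ERK, and Sprouty and SPRED proteins that act on RAS and RAF.

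Of the 10 genes, 6 were higher in Max-KO, 3 were lower and 1 was not called. The genes that rose were Egr1, Spry4, Etv4, Dusp4, Spred1 and Dusp6, and those that fell were Ier3, Etv5 and Fgf4. Levels are in FPKM (fragments per kilobase of transcript, scaled to library size) and were compared by limma on log2(FPKM + 1), and a call means a p under 0.05 after Benjamini-Hochberg adjustment over all genes tested. This background was broad: 66.2% of all genes tested were called, 43.0% higher and 23.2% lower, so calls for 9 of 10 genes are read against that share. A call together with an absolute log2 difference of at least 1 was found for 7 of the 10 genes, against 18.7% of all genes tested. This count depended on the scaling. Dusp4 (0.99) and Spred1 (0.88) lay under 1 with median-ratio scaling. Etv5 (-0.96), Dusp4 (0.795) and Spred1 (0.85) did so in absolute value with quantile normalization. So did Etv5 (-0.82) when each library was rescaled to the same total, and Spred1 (0.35) when corrected for GC content and length. The 18.7% is given for the values as deposited only. The WT and Max-KO values did not overlap for 9 of the 10 genes, against 72.0% of all genes. The median log2 difference, Max-KO minus WT, was 0.87 over the 10 genes and 0.21 over all genes tested. These medians were 0.37 and -0.07 after a joint correction for GC content and mean transcript length that was chosen after seeing the data. Known targets and inhibitors of 1 pathway thus stood at both ends: Egr1 ranked 296 from the largest rise and Ier3 ranked 60 from the largest fall among all genes tested.

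**Figure D1:**
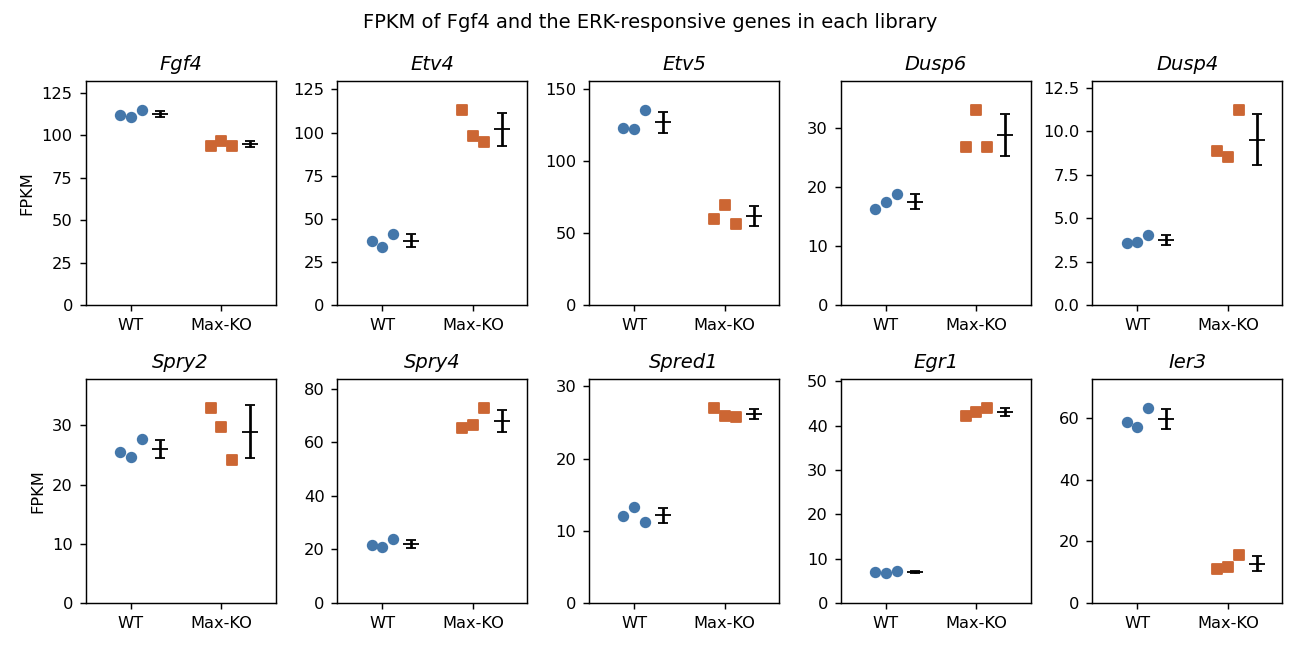
FPKM (linear axis, 1 panel per gene) of the 10 genes in each of the 3 WT and 3 Max-KO libraries, 1 point per library. Black bars give the mean and SD of each group. The points of the groups are apart for 9 genes, and they overlap for Spry2, between 24.73 and 27.69 in WT and between 24.17 and 32.96 in Max-KO.

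Because the ETS factors and MAX act at promoters, the RefSeq promoter windows (build GRCm38.p6, 250 bases before to 50 after a RefSeq start) are shown for 2 genes that rose and 2 that fell. A RefSeq start can differ from the GENCODE gene coordinates given below. The Spred1 window ends before its GENCODE gene starts, and the Fgf4 window lies inside its gene. The search used 7 windows of 6 of the 10 genes: Fgf4, Dusp6, Spry2, Spred1, Ier3 and, with 2 windows, Etv5. No window of Etv4, Dusp4, Egr1 or Spry4 was searched, which does not show that the RefSeq table lacks them. Each sequence runs 5′ to 3′ on the strand of its gene. Capitals mark CGGAAG, a longer form of the ETS site, read as CTTCCG where it lies on the other strand. The shorter GGAA was not searched for. It or its complement TTCC also occurs unmarked in the Dusp6, Spred1 and Ier3 windows. The capitals thus do not show which windows lack an ETS site. The windows are chr10:99262981-99263280 (+) for Dusp6, chr2:117120821-117121120 (+) for Spred1, chr16:22439521-22439820 (-) for Etv5 and chr17:35821463-35821762 (+) for Ier3.
Dusp6: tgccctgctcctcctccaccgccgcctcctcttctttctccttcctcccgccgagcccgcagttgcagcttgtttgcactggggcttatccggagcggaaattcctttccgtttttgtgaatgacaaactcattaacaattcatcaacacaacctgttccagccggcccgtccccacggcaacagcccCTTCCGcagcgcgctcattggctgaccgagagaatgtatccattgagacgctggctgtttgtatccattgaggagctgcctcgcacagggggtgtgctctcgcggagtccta
Spred1: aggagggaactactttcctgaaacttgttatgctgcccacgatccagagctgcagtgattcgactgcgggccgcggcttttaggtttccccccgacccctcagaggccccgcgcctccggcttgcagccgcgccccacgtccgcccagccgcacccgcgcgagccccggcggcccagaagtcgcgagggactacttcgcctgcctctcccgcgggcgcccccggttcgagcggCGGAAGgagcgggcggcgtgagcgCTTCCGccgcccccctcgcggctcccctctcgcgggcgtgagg
Etv5: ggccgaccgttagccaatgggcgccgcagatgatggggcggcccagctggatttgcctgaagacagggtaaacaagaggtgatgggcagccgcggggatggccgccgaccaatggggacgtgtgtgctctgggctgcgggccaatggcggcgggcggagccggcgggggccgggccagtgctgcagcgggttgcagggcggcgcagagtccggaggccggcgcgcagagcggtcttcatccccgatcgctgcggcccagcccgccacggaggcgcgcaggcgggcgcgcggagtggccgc
Ier3: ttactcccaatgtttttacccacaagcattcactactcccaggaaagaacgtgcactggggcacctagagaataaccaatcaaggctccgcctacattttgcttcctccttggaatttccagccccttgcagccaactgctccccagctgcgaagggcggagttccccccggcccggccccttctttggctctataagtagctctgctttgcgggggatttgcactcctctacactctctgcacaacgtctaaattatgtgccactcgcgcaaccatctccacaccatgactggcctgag
The Dusp6 window holds CGGAAG once, at bases 189 to 194 counted from its 5′ end, and the Spred1 window holds it at bases 234 to 239 and 258 to 263. On both strands, CGGAAG was in 2 of the 7 windows and in 16.9% of the 32851 windows of the table. The E-box CACGTG was in 0 of the 7 windows and in 7.15% of all windows. GGGCGG, a core of the binding site of SP1, was in 4 of the 7 windows (Fgf4, Etv5, Spred1 and Ier3) and in 35.7% of all. The CArG box, bound by SRF, was in 0 of the 7 and in 1.63% of all. These 4 motif counts leave out Etv4, Dusp4, Egr1 and Spry4, which all rose. They therefore do not show whether the promoters of those genes hold any of the motifs. Such matches describe the letters of these windows only, and no binding was measured.

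Fgf4, the ligand (ENSMUSG00000050917, chromosome 7, 144847367 to 144865243, plus strand), was at 112.28, 111.0 and 114.85 FPKM in WT 1 to 3 and at 93.57, 96.84 and 93.85 FPKM in Max-KO 1 to 3. All 3 Max-KO values lay under all 3 WT values, and the libraries of each group lay close together. Its log2 difference was -0.25 ± 0.05 (SE; 95% interval -0.36 to -0.14, adjusted p = 2.47e-03), a mean FPKM 1.19-fold lower in Max-KO. This was the smallest called difference of the 10 genes. It ended as a call when each library was rescaled to the same total (TPM), where it was -0.04 (adjusted p = 0.470), and it was -0.43 with median-ratio scaling (adjusted p = 3.33e-04) and -0.14 with quantile normalization (adjusted p = 0.0260). Fgf4 remained the most abundant of the FGF genes listed in both groups. It made up 79.64%, 81.16% and 79.82% of the summed FPKM of 18 FGF genes in WT, and 69.28%, 72.94% and 71.29% in Max-KO, so its share was lower in every Max-KO library. As deposited, the summed level went from 140.5 ± 3.58 to 133.2 ± 1.75 FPKM (mean ± SD, n = 3). The direction of this small difference depends on the scaling, since the total FPKM was lower in every Max-KO library. The sum was not taken under other scalings, so it does not show that FGF RNA fell. Fgf17, an FGF8 subfamily ligand, held the next largest share, 11.92% ± 0.631 in WT and 17.68% ± 1.84 in Max-KO.

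The genes whose pattern over the 6 libraries lay nearest to that of Fgf4 were Sf3a3, Adnp2 and Srsf4, at Euclidean distances of 0.0465, 0.0512 and 0.0514 between centred log2(FPKM + 1) values. Sf3a3 and Srsf4 encode splicing factors. Sf3a3 was at 93.73, 95.6 and 98.41 FPKM in WT and 79.01, 83.24 and 78.28 FPKM in Max-KO.

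Etv4 and Etv5 encode closely related ETS transcription factors of the PEA3 group, and they moved in opposite directions. Etv5 (ENSMUSG00000013089, chromosome 16, 22381309 to 22439719, minus strand) was at 122.91, 122.35 and 135.16 FPKM in WT and at 59.75, 69.26 and 56.41 FPKM in Max-KO. Its log2 difference was -1.03 ± 0.09 (SE; interval -1.23 to -0.83, adjusted p = 6.33e-05), 2.05-fold lower. Every Max-KO library held less Etv5 than any WT library. Etv4 (ENSMUSG00000017724, chromosome 11, 101769742 to 101785371, minus strand) was at 37.19, 33.92 and 41.06 FPKM in WT and at 112.88, 97.84 and 94.67 FPKM in Max-KO. It rose by 1.42 ± 0.09 (SE; interval 1.20 to 1.64, adjusted p = 2.38e-05), 2.72-fold, with no overlap between groups. The third member of the group, Etv1, rose from 3.29 to 14.44 FPKM on average (log2 difference 1.85, adjusted p = 1.83e-05).

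The summed FPKM of Etv1, Etv4 and Etv5 overlapped between groups, at 163.9, 159.5 and 179.1 in WT and 185.6, 182.9 and 165.7 in Max-KO. That overlap is of the values as deposited, and the sum was not taken under other scalings. The total FPKM was lower in every Max-KO library than in any WT library. Rescaling to TPM would therefore raise the Max-KO sums relative to those of WT. The make-up of the sum differed between the groups. Etv5 held 75.73% ± 0.891 of it in WT and 34.71% ± 2.89 in Max-KO (mean ± SD, n = 3), and Etv4 held 22.3% ± 0.896 and 57.16% ± 3.67. The ratio of Etv5 to Etv4 within a library, which no linear scaling of whole libraries can change, was 3.3, 3.61 and 3.29 in WT and 0.529, 0.708 and 0.596 in Max-KO. The order of the pair was thus opposite in the groups, in every library. The mean log2 ratio differed by -2.49 (exact permutation test, 2-sided, p = 0.1, the smallest that 3 against 3 allows, adjusted p = 0.12 over the 6 pairs of paralogs compared).

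**Figure D2:**
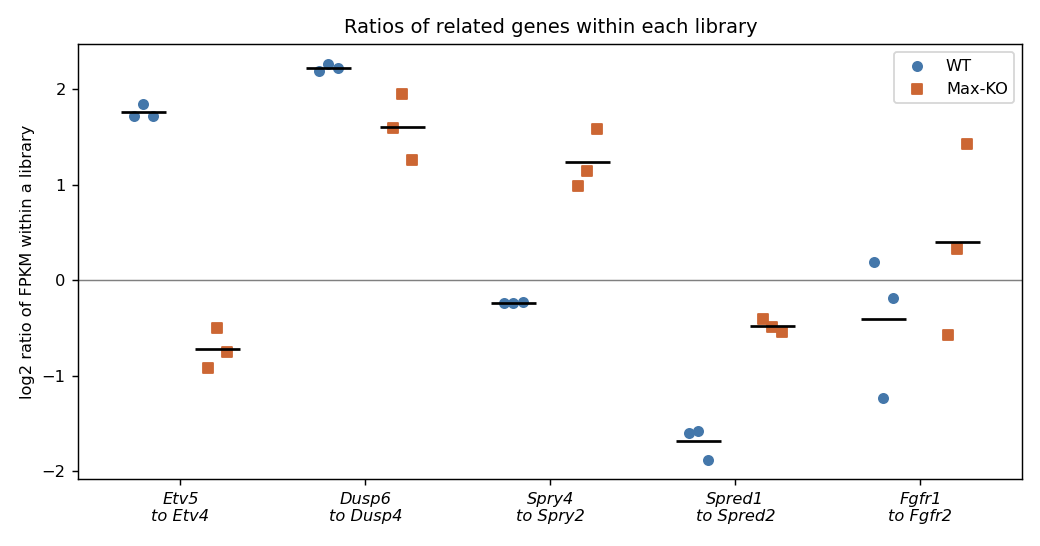
Log2 ratio of the FPKM of 2 related genes within each library, 1 point per library, with black lines at the group means and a grey line at 0, where both genes are equal. The groups overlap for Fgfr1 to Fgfr2 and are apart for the other pairs shown; Etv5 to Etv4 lies above 0 in all 3 WT libraries and below 0 in all 3 Max-KO libraries.

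The early response genes Egr1 and Ier3 showed the widest differences, again with opposite signs. Egr1 encodes a zinc finger transcription factor induced soon after ERK activation (ENSMUSG00000038418, chromosome 18, 34859823 to 34864984, plus strand). It was at 7.0, 6.67 and 7.11 FPKM in WT and at 42.2, 43.08 and 43.99 FPKM in Max-KO. The 3 libraries of each group lay within a narrow range, and Egr1 rose by 2.48 ± 0.06 (SE; interval 2.33 to 2.62, adjusted p = 8.17e-07), 6.22-fold. Ier3, whose product is phosphorylated by ERK and affects cell survival, lies on chromosome 17 (ENSMUSG00000003541, 35821684 to 35822923, plus strand). It was at 58.8, 57.03 and 63.21 FPKM in WT and at 11.0, 11.65 and 15.4 FPKM in Max-KO. It fell by 2.16 ± 0.12 on the log2 scale (SE; interval -2.45 to -1.87, adjusted p = 1.21e-05), 4.71-fold. Egr1 was less abundant than Ier3 in every WT library and more abundant in every Max-KO library.

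Both dual-specificity phosphatases rose. Dusp6 encodes a cytoplasmic phosphatase with a strong preference for ERK (ENSMUSG00000019960, chromosome 10, 99263231 to 99267489, plus strand). It was at 16.25, 17.53 and 18.93 FPKM in WT and at 26.84, 33.05 and 26.74 FPKM in Max-KO, so the lowest Max-KO value lay above the highest WT value. Its log2 difference was 0.68 ± 0.10 (SE; interval 0.44 to 0.92, adjusted p = 9.39e-04), 1.64-fold. Dusp4 encodes a nuclear phosphatase of ERK and related kinases (ENSMUSG00000031530, chromosome 8, 34807297 to 34819894, plus strand). It was the least abundant of the 10 genes in both groups, at 3.56, 3.64 and 4.06 FPKM in WT and 8.85, 8.52 and 11.21 FPKM in Max-KO. It rose by 1.14 ± 0.12 (SE; interval 0.85 to 1.43, adjusted p = 1.87e-04), 2.54-fold. Its values still stood for an estimated 203 to 235 fragments a library in WT and 440 to 793 in Max-KO. The ratio of Dusp6 to Dusp4 was 4.56, 4.82 and 4.66 in WT and 3.03, 3.88 and 2.39 in Max-KO, lower in every Max-KO library (log2 difference -0.62, exact permutation p = 0.1, adjusted p = 0.12).

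Of the Sprouty genes, Spry4 rose and Spry2 was not called. Spry4 (ENSMUSG00000024427, chromosome 18, 38586247 to 38601415, minus strand) was at 21.61, 20.92 and 23.73 FPKM in WT and at 65.18, 66.3 and 72.79 FPKM in Max-KO. It rose by 1.58 ± 0.07 (SE; interval 1.41 to 1.75, adjusted p = 5.91e-06), 3.08-fold, with no overlap. Gm27369 and Gm27804, misc_RNA genes on the opposite strand, lie within Spry4 and share 0 exonic bases with it, and no annotated gene overlaps the other 9 genes. Spry2 (ENSMUSG00000022114, chromosome 14, 105891947 to 105896819, minus strand) was at 25.49, 24.73 and 27.69 FPKM in WT and at 32.96, 29.82 and 24.17 FPKM in Max-KO. Max-KO 1 and 2 lay above all WT libraries and Max-KO 3 below them. The log2 difference of Spry2 was 0.14 (SE 0.115; interval -0.13 to 0.42, adjusted p = 0.302), which does not show that it was equal in the groups. Without Max-KO 3 it was 0.26 (adjusted p = 0.0348), after rescaling to TPM 0.35 (adjusted p = 0.0321), and with median-ratio scaling -0.03 (adjusted p = 0.832).

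Spry1, the other Sprouty gene above the filter, fell from 5.537 to 3.753 FPKM on average (log2 difference -0.46, adjusted p = 5.14e-03). The summed FPKM of Spry1 to Spry4 was 52.75, 50.86 and 57.33 in WT and 102.2, 99.91 and 100.5 in Max-KO. Spry4 held 41.16% ± 0.214 of that sum in WT and 67.51% ± 4.45 in Max-KO, and Spry2 held 48.42% ± 0.181 and 28.71% ± 4.21. The ratio of Spry4 to Spry2 was 0.848, 0.846 and 0.857 in WT and 1.98, 2.22 and 3.01 in Max-KO. Spry2 was thus the more abundant of the pair in every WT library and Spry4 in every Max-KO library (log2 difference 1.48, exact permutation p = 0.1, adjusted p = 0.12).

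Spred1 encodes a membrane protein that recruits the RAS GTPase-activating protein neurofibromin (ENSMUSG00000027351, chromosome 2, 117121374 to 117182279, plus strand). It was at 12.02, 13.22 and 11.19 FPKM in WT and at 27.0, 25.83 and 25.71 FPKM in Max-KO. It rose by 1.05 ± 0.08 (SE; interval 0.87 to 1.23, adjusted p = 3.74e-05), 2.16-fold, with no overlap. Its paralog Spred2, the more abundant of the pair in all 6 libraries, was at 38.99 FPKM in WT and 36.47 FPKM in Max-KO on average (log2 difference -0.09, adjusted p = 0.234). Spred2 was called lower with median-ratio scaling (-0.27, adjusted p = 0.0121) and when corrected for GC content and length (-0.37, adjusted p = 1.14e-03). The ratio of Spred1 to Spred2 was 0.33, 0.336 and 0.272 in WT and 0.757, 0.713 and 0.685 in Max-KO (log2 difference 1.21, exact permutation p = 0.1, adjusted p = 0.12). Every Max-KO ratio lay above every WT ratio. The low-level paralog Spred3 rose from 1.957 to 5.187 FPKM (log2 difference 1.07, adjusted p = 7.58e-05). With the joint correction for GC content and mean transcript length, Spred1 rose by 0.35 (adjusted p = 3.81e-03), Dusp6 by 0.39 (adjusted p = 0.0113) and Fgf4 fell by 0.46 (adjusted p = 8.38e-05), each moved by over 1.5 times on the log2 scale.

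Ordered by mean FPKM, the 10 genes ran in WT from Etv5 through Fgf4, Ier3, Etv4, Spry2, Spry4, Dusp6, Spred1 and Egr1 to Dusp4, and no 2 neighbours in that order had overlapping values. In Max-KO the order ran from Etv4 through Fgf4, Spry4, Etv5, Egr1, Spry2, Dusp6, Spred1 and Ier3 to Dusp4. There the values of Etv4 and Fgf4 overlapped, as did those of Spry4 and Etv5, of Spry2 and Dusp6, of Dusp6 and Spred1, and of Ier3 and Dusp4. Fgf4 was the second in both orders. The summed level of the 10 genes, as deposited, was 425.0 ± 19.3 FPKM in WT and 475.8 ± 9.44 FPKM in Max-KO (mean ± SD, n = 3). This difference is small beside the effect of scaling, and the sum was not taken under other scalings.

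**Figure D3:**
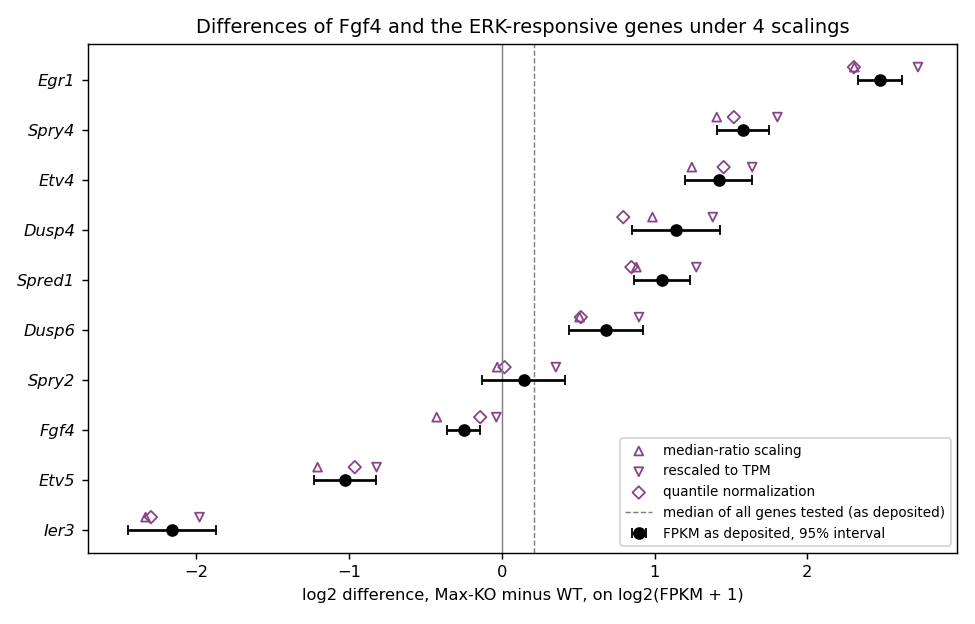
Log2 difference, Max-KO minus WT, of each of the 10 genes, with the 95% interval from limma for the values as deposited and the difference under 3 other scalings; the dashed line is the median of all genes tested (0.21). Egr1 is at 2.48 and Ier3 at -2.16, the interval of Spry2 spans 0, and Fgf4 lies closest to 0 of the genes called.

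The rest of the pathway was described from 7 further lists by role. A few listed genes passed the filter through 1 group alone, which sets their direction, so the counts are descriptions, to be read beside the 43.0% of all genes called higher and the 23.2% called lower. Of the 18 FGF genes listed, Fgf4 included, 8 were tested, with 3 higher, 2 lower and a median log2 difference of 0.10. Fgf10 rose from 1.447 to 3.79 FPKM (log2 difference 0.98, adjusted p = 6.98e-04). Fgf17 rose from 16.77 to 23.56 FPKM (0.46, adjusted p = 4.99e-03), and Fgf18 from 2.15 to 3.447 FPKM (0.50, adjusted p = 0.0143). Fgf15 fell from 1.693 to 0.573 FPKM (log2 difference -0.79, adjusted p = 5.77e-03) and had entered through WT alone. With quantile normalization Fgf17 (adjusted p = 0.0594) and Fgf18 (adjusted p = 0.744) were no longer called. Fgf18 also lost its call with median-ratio scaling (0.37, adjusted p = 0.0524) and without WT 1 (adjusted p = 0.0505). With quantile normalization 1 of the FGF genes was higher and 3 were lower, with a median of -0.23.

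Of 13 receptor and adaptor genes, 12 were tested, with 4 higher, 3 lower and a median of 0.07. This split depended on the scaling: 7 were higher and 2 lower in TPM, 2 and 4 with median-ratio scaling or quantile normalization, and 3 and 5 (median -0.35) after the GC and length correction. Fgfr1 rose from 20.76 to 26.46 FPKM (log2 difference 0.33, adjusted p = 0.0148). It was no longer called once Max-KO 1 (adjusted p = 0.0515) or Max-KO 3 (adjusted p = 0.0513) was left out, with median-ratio scaling (0.16, adjusted p = 0.172) or with quantile normalization (0.17, adjusted p = 0.155). Fgfr2 was at 17.98, 48.44 and 24.03 FPKM in WT and 42.2, 18.2 and 10.4 FPKM in Max-KO (log2 difference -0.44, adjusted p = 0.552). Its libraries differed more within a group than between group means, so the ratio of Fgfr1 to Fgfr2 also overlapped (exact permutation p = 0.4, adjusted p = 0.4). Fgfr3 was at 1.203 and 0.793 FPKM on average (log2 difference -0.30, adjusted p = 0.121) and had entered through WT alone. It was called lower with quantile normalization (-0.89, adjusted p = 2.13e-03). Fgfr4, at 0.480 and 0.683 FPKM, was not tested. Of the adaptors, Grb2 rose from 65.25 to 94.27 FPKM (0.52, adjusted p = 1.28e-04) and Frs2 from 9.973 to 14.79 FPKM (0.53, adjusted p = 8.63e-04). Gab1, a docking protein downstream of FRS2, fell from 72.22 to 43.78 FPKM (log2 difference -0.71, adjusted p = 7.69e-05). Fgfrl1, a receptor without a kinase domain, fell from 5.42 to 3.143 FPKM (-0.63, adjusted p = 5.16e-03). Corrected for GC content and length, Frs2 was no longer called (0.07, adjusted p = 0.406).

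Heparan sulfate genes, whose sugar chains FGF4 needs at its receptor, were all tested (15 of 15), with 7 higher, 2 lower and a median of 0.21, that of all genes. With median-ratio scaling 6 were higher and 4 lower, and after the GC and length correction 4 and 3. Sulf1, which removes sulfate groups from the chains, rose from 6.067 to 14.85 FPKM (log2 difference 1.16, adjusted p = 2.52e-05). The chain-modifying enzymes Glce (0.72, adjusted p = 1.87e-04) and Hs2st1 (0.71, adjusted p = 2.41e-04) rose as well. Xylt1, which starts the chain, rose from 0.513 to 1.873 FPKM (0.92, adjusted p = 4.17e-04) and had entered through Max-KO alone, while Xylt2, with the same role, fell from 19.0 to 12.66 FPKM (-0.56, adjusted p = 1.48e-03). Corrected for GC content and length, Glce was at 0.18 (adjusted p = 0.0522).

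All 20 genes from RAS to ERK were tested, with 10 higher, 6 lower and a median of 0.17. This split depended on the scaling: with median-ratio scaling 7 were higher and 9 lower, and with the GC and length correction 5 and 7. Mapk3, which encodes ERK1, was at 44.11, 41.19 and 49.99 FPKM in WT and at 15.39, 17.87 and 21.75 FPKM in Max-KO. Its log2 difference was -1.262 (adjusted p = 1.65e-04), with no overlap.

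Rasgrp2, an exchange factor known mainly for RAP1, fell from 98.16 to 21.46 FPKM (log2 difference -2.17, adjusted p = 1.02e-04). Braf rose from 4.843 to 10.94 FPKM (1.04, adjusted p = 7.23e-04) and Rps6ka3, an ERK substrate kinase, from 5.617 to 13.13 FPKM (1.09, adjusted p = 1.37e-04). Of the MEK genes, Map2k1 was at 64.51 and 73.2 FPKM (0.18, adjusted p = 0.0422). That call was lost with no low-value filter, with other variance settings and without any 1 of 5 of the 6 libraries (adjusted p from 0.0661 to 0.104). Map2k2 was at 67.52 and 61.53 FPKM (log2 difference -0.13, adjusted p = 0.0808). It was called lower with median-ratio scaling (-0.31, adjusted p = 4.57e-03) and without WT 2 (-0.17, adjusted p = 0.0449).

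RAS GTPase-activating proteins, which switch RAS off, were all tested (7 of 7), with a median of 0.81. Of them 5 were higher and 0 lower, beside 43.0% and 23.2% of all genes tested. Nf1, the partner of Spred1, rose from 6.353 to 17.85 FPKM (log2 difference 1.37, adjusted p = 8.48e-05). Rasa2 (1.02, adjusted p = 1.14e-04), Rasal2 (0.91, adjusted p = 1.56e-04) and Rasa1 (0.81, adjusted p = 1.55e-03) rose too. These genes are long, with a median of 8366 exonic bases against 3163.5 for the 10 genes, and among all genes, those with 6281 exonic bases or more had a median log2 difference of 0.33, against 0.10 to 0.19 in 3 groups of shorter genes. The part of length in these rises was not separated from GC content. The joint correction used mean transcript length, not exonic bases. With it the list's median was 0.27 and Rasa1 was no longer called (0.11, adjusted p = 0.192). With quantile normalization 5 were higher and 1 lower.

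**Figure D4:**
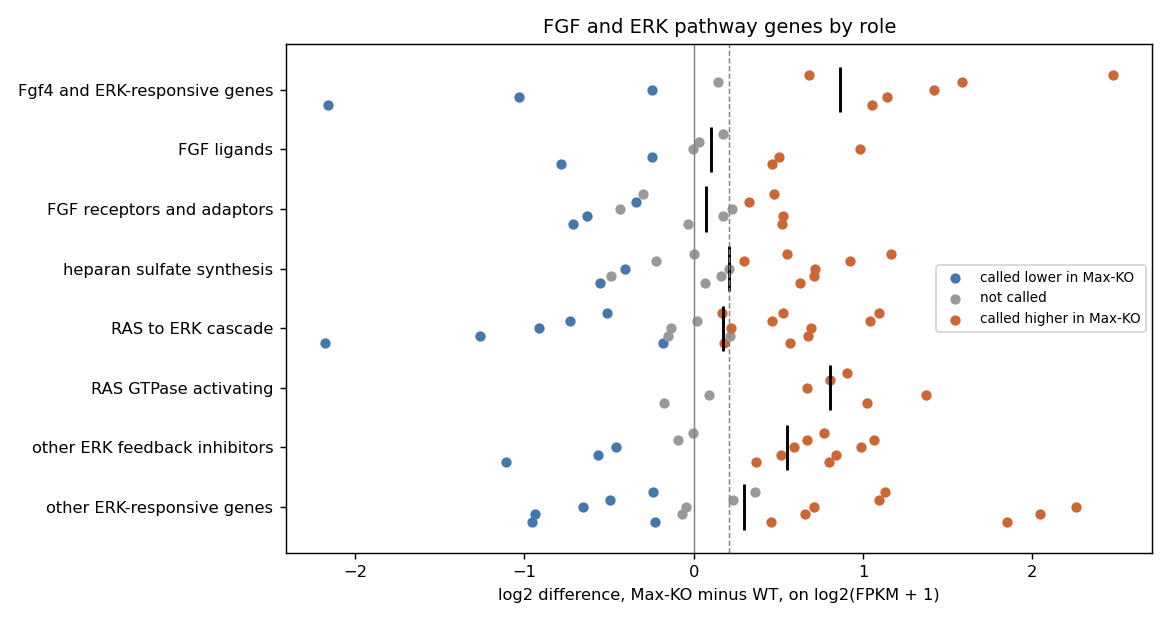
Log2 difference, Max-KO minus WT, of each tested gene by role, 1 point per gene, coloured by its call; the black bar is the median of the row, the solid line marks 0 and the dashed line the median of all genes tested (0.21). Called genes lie on both sides of 0 in each row except the RAS GTPase-activating proteins, where 5 were higher and 0 lower.

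Of 17 other feedback inhibitors, 14 were tested, with 9 higher, 3 lower and a median of 0.55. Besides Spred3, Il17rd, a membrane inhibitor of FGF signalling also known as SEF, rose from 9.323 to 19.45 FPKM (log2 difference 0.99, adjusted p = 2.31e-05). Errfi1, an inhibitor of the EGF receptor, rose from 7.333 to 13.92 FPKM (0.84, adjusted p = 1.96e-04). The phosphatase genes related to Dusp6 and Dusp4 did not move as 1 group. Dusp5 rose from 9.093 to 15.02 FPKM (0.67, adjusted p = 6.31e-04) and Dusp7, a close relative of Dusp6, fell from 7.36 to 2.88 FPKM (-1.11, adjusted p = 7.46e-05). Dusp9 was at 14.43 and 14.66 FPKM on average (log2 difference -0.003, adjusted p = 0.990).

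Of 21 other ERK-responsive genes, most of them transcription factors, 18 were tested, with 8 higher, 6 lower and a median of 0.30. Of these 18, 4 had entered through 1 group alone. Phlda1 rose from 5.95 to 32.62 FPKM (log2 difference 2.26, adjusted p = 1.87e-05), close to the rise of Egr1. Egr3, a relative of Egr1, was at 0.05 FPKM on average in WT and 3.34 FPKM in Max-KO (2.05, adjusted p = 1.12e-05), and had entered through Max-KO alone. Fos, an early response gene like Egr1, rose from 2.09 to 5.813 FPKM (1.13, adjusted p = 3.83e-04). Atf3 was lower, at 1.777 and 0.433 FPKM (log2 difference -0.96, adjusted p = 4.45e-04), and had entered through WT alone. With quantile normalization 7 were higher and 7 lower, with a median of -0.04, and after the GC and length correction the median was 0.03.

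The size of many of these differences depended on the scale, also where the call held. Under the GC and length correction the rise was smaller by over 1.5 times for Nf1 (0.79), Sulf1 (0.71), Rps6ka3 (0.61), Xylt1 (0.60), Il17rd (0.59), Rasal2 (0.47), Errfi1 (0.46), Fgf10 (0.44), Braf (0.35), Rasa2 (0.27), Grb2 (0.26) and Hs2st1 (0.26). With quantile normalization it was smaller by as much for Fos (0.72), Rasa2 (0.65), Spred3 (0.64), Errfi1 (0.55), Rasal2 (0.55), Fgf10 (0.54), Hs2st1 (0.42), Dusp5 (0.40), Xylt1 (0.37) and Frs2 (0.26), and the fall was larger for Atf3 (-1.44), Fgf15 (-1.29), Fgfrl1 (-1.03) and Spry1 (-0.85). Median-ratio scaling gave 0.29 for Fgf17 and 0.35 for Grb2. TPM gave 0.54 for Fgfr1, 0.39 for Map2k1, -0.36 for Xylt2 and -0.30 for Spry1. With a pseudocount of 0.1, which weighs low levels more, Egr3 was at 4.53, Xylt1 at 1.68, Atf3 at -1.83 and Fgf15 at -1.49. Egr1, Spry4, Etv4, Etv5, Dusp4 and Ier3 moved by less than 1.5 times under every alternative run.

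Several measures of the whole libraries moved with the genotype. An estimated 20.8 to 28.6 M fragments stood behind a library. The summed FPKM was 743406 to 774405 in WT and 645169 to 658361 in Max-KO, and 12587 to 12847 against 14108 to 14226 genes reached 1 FPKM. The mitochondrial share was 5.11%, 5.20% and 3.67% in WT 1 to 3 and 5.24%, 5.65% and 5.55% in Max-KO 1 to 3. Only WT 3 lay well apart, and WT 2 and Max-KO 1 were nearly equal. Max itself was at 41.6, 50.2 and 42.28 FPKM in WT and 35.79, 39.6 and 43.4 FPKM in Max-KO (adjusted p = 0.168); a level over the whole gene does not show whether a deleted part was read, so it checks no label. Stem cell markers were high in all 6 libraries: Pou5f1 stood between 863.78 and 1029.94 FPKM, and the 7 markers summed to 4488 to 5080 FPKM in WT and 6449 to 6971 FPKM in Max-KO. Dppa5a was the largest part of that sum, at 2510 FPKM in WT and 4020 FPKM in Max-KO on average. The 7 primitive endoderm markers summed to 1.97 to 2.42 FPKM in WT and 5.71 to 10.22 FPKM in Max-KO, with Foxa2 at 0 in WT 2 and 3 and Sox17 and Gata4 lowest among Max-KO in library 3. Of its markers 4 of 4 tested were higher, 3 of them (Gata4, Sox17 and Pdgfra) having entered through Max-KO alone, which sets their direction. With quantile normalization only 1 of these 4 was called higher. The 7 trophoblast markers summed to 31.86 to 33.43 and 34.92 to 43.98 FPKM, with 5 of 6 tested higher, 3 of them (Elf5, Gata3 and Krt7) having entered through Max-KO alone, and Cdx2 at 0.02 to 0.4 FPKM. The largest part of that sum was Tfap2c, at 27.7 FPKM in WT and 22.53 FPKM in Max-KO on average (log2 difference -0.30, adjusted p = 0.0536). Tfap2c was called lower with median-ratio scaling (-0.47, adjusted p = 9.58e-03). With quantile normalization 3 of the 6 trophoblast markers tested were called higher and 1 lower. The 7 primed epiblast markers summed to 108 to 114 and 71.98 to 91.28 FPKM, with 2 of 5 tested higher, 2 lower and Fgf5 at 0 to 0.07 FPKM. Dnmt3b, called lower, was the largest part, at 85.51 FPKM in WT and 39.79 FPKM in Max-KO on average. The 7 fibroblast markers summed to 7.95 to 8.33 and 7.99 to 10.2 FPKM, with 1 of 2 tested higher and Lum at 0.02 to 0.07 FPKM. These marker counts are to be read beside the 43.0% of all genes called higher and the 23.2% called lower. The part of these other cell types in the differences of the 10 genes was not tested. In bulk RNA, fewer cells that express a gene and less RNA per cell cannot be told apart, and RNA levels do not measure the activity of ERK.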

How the data were processed

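RNA was measured in 3 WT and 3 Max-KO samples, from Trizol RNA and Illumina TruSeq libraries, per the labels' protocols. The deposited values are FPKM per gene and library with 2 decimals. Build GRCm38.p6 and, with no role given, HISAT2 2.1.0, FastQC, DESeq 1.26.0 and RSEM are named in the submitters' processing notes. That the deposited unit is FPKM was read from the values, whose library sums differ and whose low values step with transcript length, since per the file headers no unit is stated. No source used here says whether strand was kept.

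Symbols and coordinates came from GENCODE M21 (GRCm38) for the 55536 Ensembl identifiers; 1153 assembled loci were left out. The filter kept 14661 genes whose mean reached 1 FPKM in WT, in Max-KO or in both. Their log2(FPKM + 1) values, a scale that understates changes of low genes, entered a 2-sided limma fit (3.58.1, R 4.3.3) on genotype, with trend and robust variances. Benjamini-Hochberg adjustment ran over all of them, and calls were made under 0.05. The fit was also run on simulated data with planted differences, whose outcome is not given here. Ratios of 6 paralog pairs were compared by exact permutation tests. A 95% interval is that of limma. Nothing says that samples of a group were separate cultures, so p-values measure the spread between these samples, which may be technical.

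Depth was estimated from low FPKM values of genes with 1 transcript . These fell near whole multiples of 1 step per library, and 83.9% to 88.1% lay within 0.15 of a whole number at the best step. Counts were not rebuilt. Motifs were searched on both strands of RefSeq promoter windows of GRCm38.p6. Tables and figures were made with Python 3.11.15, pandas 2.3.3, numpy 2.4.6 and matplotlib 3.10.9.

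The 10 genes and the pathway and marker lists were chosen with earlier results of these data known. Named from each pathway list were up to 4 called genes with the largest absolute log2 difference, the largest called in the opposite direction where there was one, the paralogs of the 10 genes, Fgfr1 to Fgfr4, Mapk3, Map2k1 and Map2k2, and the 3 genes nearest to Fgf4. Spred3 fell under the first of these. The rule also took 1 gene that is not reported here, and with it 1 of the 6 pairs. Alternatives were other pseudocounts, filters, scalings and variance settings, protein-coding genes only, a replicate block, leaving out each library, and, added later, a joint correction for GC content and mean transcript length.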

Additional observations from a re-analysis of the deposited data

How the results depend on the processing

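Over 17 alternatives, 787 of 826 values of 49 named genes kept their sign and their side of the threshold, 21 lost the call, 7 gained one and 11 turned sign. Of the 10 genes, Fgf4 lost its call after rescaling to TPM and Spry2 gained one there and without Max-KO replicate 3; Spry2 turned to -0.0303 with median-ratio scaling and -0.26 with the GC and length correction. The other 8 kept direction and call in every alternative run. Other turned signs were Map2k1 at -0.000133 with median-ratio scaling, Map2k2 at 0.0804, Spred2 at 0.12 and Dusp9 at 0.20 after rescaling to TPM, and Map2k2 at 0.0115 with the correction. Leaving out 1 library gave Fgfr2 -0.95 to 0.00813 and Dusp9 -0.16 to 0.18. The cause of these changes was not tested. The median of all genes was 0.21, 0.05 with median-ratio scaling, 0.41 in TPM and -0.02 with quantile normalization, and 64.9%, 52.6%, 76.9% and 46.7% of called genes were higher. With the replicate block 9485 genes were called against 9703; of the named genes only Map2k1 lost its call (adjusted p = 0.0584). Same-numbered samples did not deviate together (correlations of -0.0006, 0.016 and 0.086), so the numbers were not taken as pairs. Calls over all alternatives ran from 7288 (filter at 5 FPKM) to 10704 (no filter). The ratios of the paralog pairs reported turned sign in none of the alternatives run for them. With 3 libraries a group, no exact test could go under 0.1.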

Other observations

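The IER and EGR genes that were called differed in direction by name, a grouping chosen after their values were seen. Besides Ier3, the listed IER genes were lower in Max-KO: Ier2 went from 70.24 ± 4.56 to 59.66 ± 1.88 FPKM (mean ± SD, n = 3; log2 difference -0.23, adjusted p = 0.0145, limma), Ier5 from 2.107 to 0.977 FPKM (-0.65, adjusted p = 1.38e-03) and Ier5l from 5.317 to 2.30 FPKM (-0.94, adjusted p = 1.90e-04). Ier5 had passed the filter through WT alone, and Ier2 lost its call after rescaling to TPM (-0.02, adjusted p = 0.767) and when corrected for GC content and length (-0.08, adjusted p = 0.225). Egr1 and Egr3 were higher, Egr3 having entered through Max-KO alone, while Egr2 and Egr4 were under 1 FPKM in both groups and were not tested. Other early response genes in the list went both ways. Fos, Fosl1, Junb and Nr4a1 were higher, Atf3 was lower, and Jun and Fosl2 were not called. Fosl1 had entered through Max-KO alone and Atf3 through WT alone. Of all genes tested, 43.0% were called higher and 23.2% lower.

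Fgfr2 varied within groups far more than most genes. Its highest WT library stood 2.69-fold above its lowest and its highest Max-KO library 4.06-fold. Its pooled SD within groups was 0.850 on the log2 scale against a median of 0.10 over the 7542 genes averaging 10 FPKM or more, and it ranked 52 from the largest. Fgf4 differed little within groups, with SDs of 0.0248 in WT and 0.0272 in Max-KO.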
